A study of Mus musculus with 20 samples.

Results

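Imprinted genes were compared in mouse brain progenitor cell lines, transduced against control embryonic cells and transformed against control postnatal cells. The set was a list of 37 genes named as imprinted, and 35 of them had a probe set annotated to that gene alone, out of 18193 genes measured so. H19 and Zrsr1 had none and were not analysed here. The 35 genes were grouped by imprinted cluster and by the parental copy known to be expressed, 16 paternal and 19 maternal. The maternal class takes in genes listed as maternal in placenta, in neurons or in some tissues. A gene with several probe sets was represented by the one with the highest mean over all 20 arrays. The list itself was drawn up with earlier results of these arrays known.

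Total RNA had been hybridised to 20 arrays, 1 cell sample each, in 4 groups of 5. They were embryonic progenitors after transduction, labelled as a genetic modification, and control embryonic progenitors, then postnatal progenitors after transformation and control postnatal progenitors. All are cell lines from brain. The labels give no strain, age in days, introduced sequence or transforming agent, and none of the 4 groups is described further. They also do not say whether the 5 samples of a group came from separate cultures, so p-values reflect spread that may be technical only. For arrays, precision is limited by their number.

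In genomic imprinting, DNA methylation laid down in the egg or sperm leaves a gene active from 1 parental copy. Imprinted genes lie in clusters, each under an imprinting control region, and in some clusters a long noncoding RNA from 1 copy silences neighbours on the same chromosome. Several paternally expressed genes promote growth and several maternally expressed genes restrain it, and many are active in neural progenitors and neurons. An expression array reads the sum of both copies, so parental origin was not measured here.

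The labelled cell type was checked against markers. All 7 measured members of a glial and neural progenitor list (8 listed) were above background in every group, and their summed signal was 212038 to 222103 in transduced and 366836 to 420768 in control embryonic cells, and 342422 to 363244 in transformed and 310195 to 433464 in control postnatal cells. After transduction 3 of the 7 progenitor markers were called lower and none higher. Neuron markers (6 of 6 measured) summed to 2449 to 2933 in transduced and 9142 to 9921 in control embryonic cells, and all 6 were lower after transduction. In the postnatal cells they summed to 11841 to 12817 after transformation and 8347 to 12731 in controls. Of the microglial markers (6 of 6 measured), 3 to 4 were above background on some array of each group. Of the endothelial markers (6 of 6 measured) 2 to 5 were, of fibroblast and meninges markers 5 to 6 of 6, and of choroid plexus and ependyma markers 4 to 6 of 6. The microglial Aif1 and C1qa and the endothelial Pecam1 were below background on all 20 arrays. Postnatal control arrays 4 and 5 stood apart from arrays 1 to 3. Mki67, a marker of cycling cells, read 37266, 34816, 35822, 5929 and 4351 on arrays 1 to 5 of that group, and a member's result whose call changed without arrays 4 and 5 is given both ways. Summed astrocyte markers (6 of 6 measured) ranged from 37172 to 39910 in transformed and from 13383 to 106941 in control postnatal cells. After transformation 4 of 6 were called lower and 1 higher, with or without those arrays. In embryonic cells astrocyte markers summed to 31998 to 35694 after transduction and 36881 to 40930 in controls, with 2 of 6 called lower. Summed markers of myelinating oligodendrocytes (5 of 6 measured) ranged from 27502 to 29892 in transformed and from 36725 to 108315 in control cells, and 3 of 5 were called lower, or 0 without those arrays. In embryonic cells they summed to 11060 to 14836 after transduction and 24138 to 28140 in controls, with 1 of 5 called lower. The log2 ratio of the 3' to the 5' control probe set of Gapdh, a sign of RNA quality, averaged -0.30 in transduced and -0.38 in control embryonic cells, and -0.55 in transformed and -0.46 in control postnatal cells. For Actb it averaged 0.42 in transduced and 0.32 in control embryonic cells, and 0.28 in transformed and 0.25 in control postnatal cells. The part of these differences in the results below was not tested. In bulk RNA, fewer cells of a type and less RNA per cell cannot be told apart.

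Signals are linear intensities, and log2 changes are of signal plus 16, modified minus control. The embryonic response is transduced minus control and the postnatal response transformed minus control. A gene was called at an adjusted p under 0.05 in limma and at least a 2-fold change. The background of an array was the 95th percentile of its 27 bacterial control probe sets, 107 to 221. Of the 35 genes, 19 were above it on all 20 arrays, 15 on some and 1, Zim1, on none. Those that were dim in a group could be called only through the group where they were brighter.

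Transduced embryonic cells had 5 of the 35 genes higher and 11 lower than their controls. Among all genes 8.61% were called higher and 5.74% lower. The members' median log2 change was -0.51, against 0.08 over all genes. The 5 arrays of each group did not overlap for 20 of the 35, against 34.8% of all genes. Transformed postnatal cells had 3 of the 35 higher and 6 lower than their controls, against 9.56% of all genes higher and 6.40% lower. The median was 0.02, against -0.0024 over all genes, and 15 of the 35 did not overlap, against 32.2% of all genes. Restricted to genes above background on all arrays, the embryonic response called 9 of 19 members and 12.9% of 10242 genes, and the postnatal response 5 of 19 members and 16.3% of those genes. The members had been listed with results of these arrays known, so these shares describe them and are not a test.

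**Figure D1:**
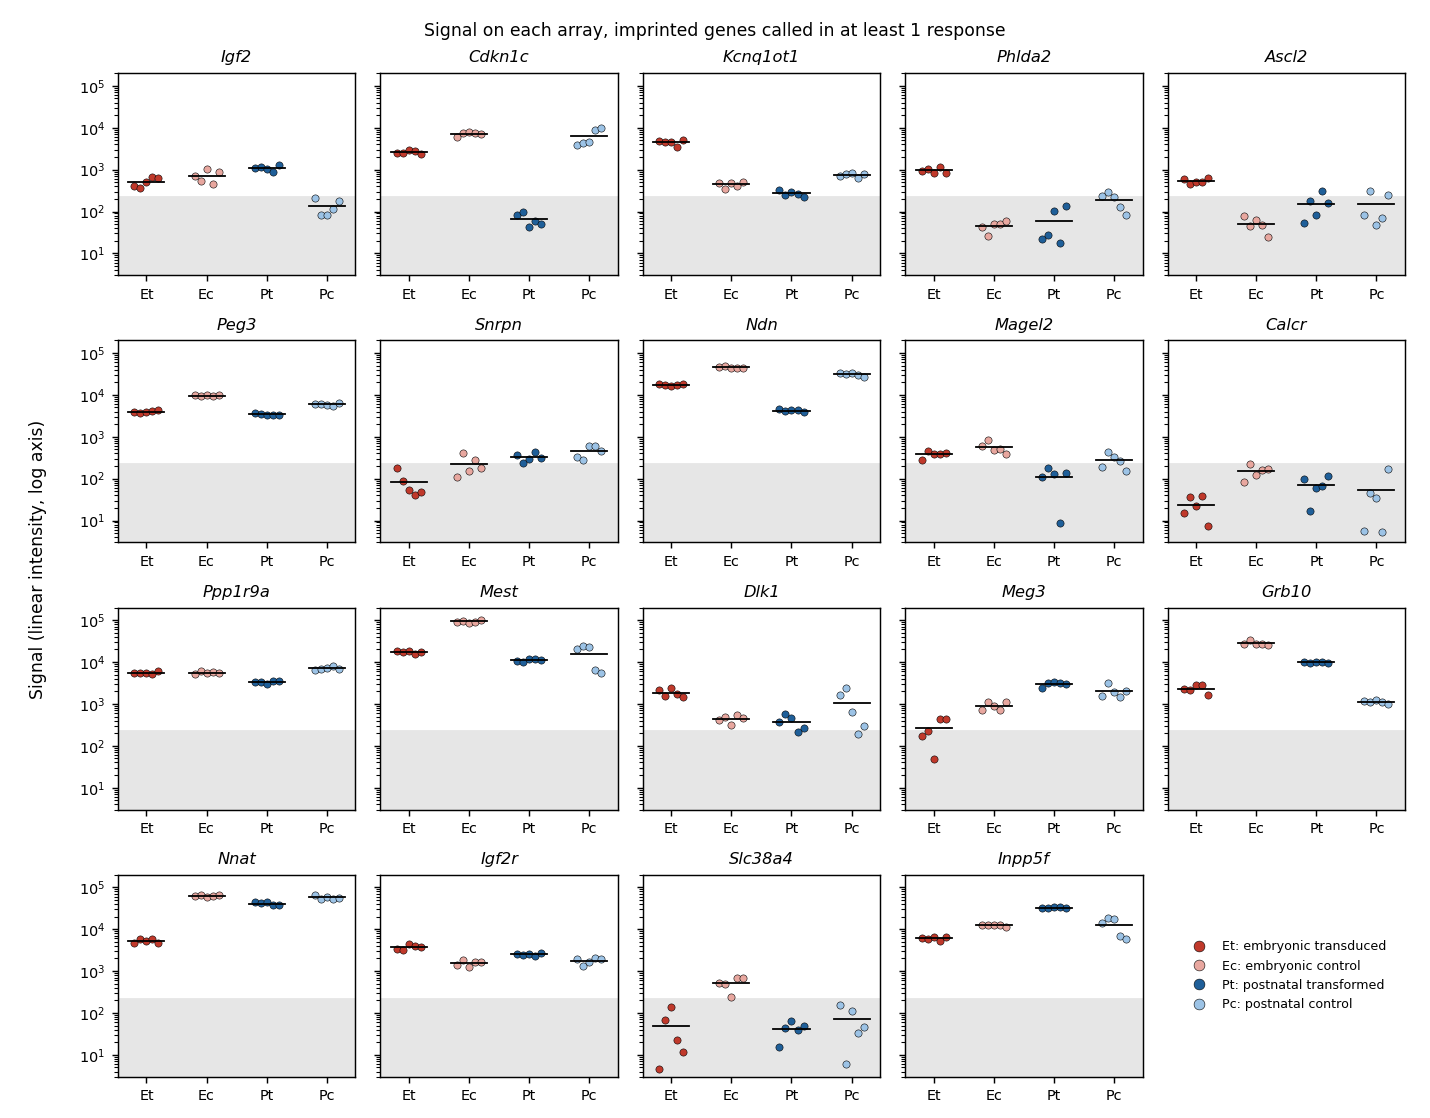
Signal on each array (linear intensity on a log axis) for the 19 imprinted genes called in at least 1 response. Each point is 1 array, the bar is the mean of 5 arrays, and grey marks signals up to the highest array background, 221. Grb10 and Nnat are far lower in transduced (Et) than in control (Ec) embryonic cells, and Cdkn1c lies in the grey band in transformed postnatal cells (Pt) only.

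The responses at the 2 ages were set side by side gene by gene. Both responses lowered Cdkn1c and Ndn and raised no member together, so 2 of 35 were called in both in the same direction, against 4.05% of all genes. Kcnq1ot1 and Phlda2 were higher in the embryonic and lower in the postnatal response, and Grb10 and Inpp5f were lower in the embryonic and higher in the postnatal response. These 4 opposite calls compare with 1.32% of all genes. A further 10 genes were called in the embryonic response alone, 3 in the postnatal response alone and 16 in neither. Without postnatal control arrays 4 and 5, Inpp5f left the opposite calls and Dlk1 joined them, and Mest was called lower in both responses. The 2 responses use different arrays throughout, although their tests share 1 spread per gene. Across the 35 genes they had a Pearson r of -0.14 and a Spearman rho of -0.11, and 17 had the same sign. Across all 18193 genes r was 0.24 and rho 0.17, and 10014 had the same sign. Genes are not independent replicates, and these values are a description.

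**Figure D2:**
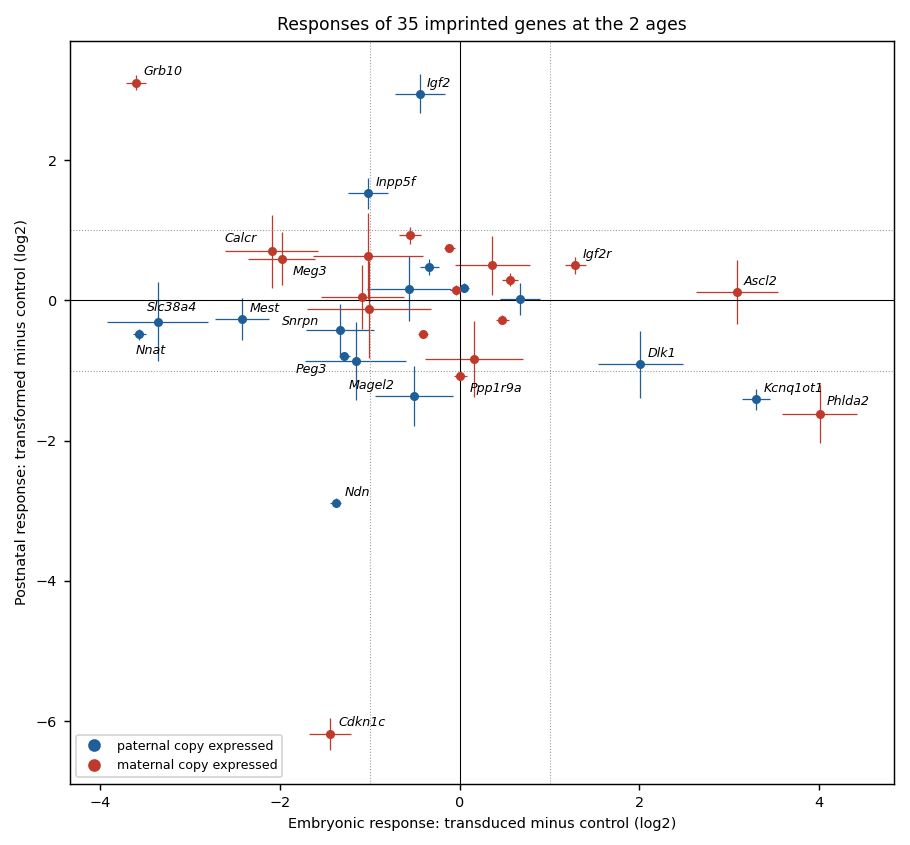
Log2 change in the postnatal response (vertical axis) against the embryonic response (horizontal axis) for the 35 imprinted genes, with standard errors and with 2-fold dotted. Blue marks genes classed as paternally expressed and red those classed as maternally expressed, and changes of dim genes are fitted values. Grb10 lies alone at the upper left (-3.60, 3.11), and Phlda2 and Kcnq1ot1 lie at the lower right.

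For the 5 genes with the smallest adjusted p in the embryonic response, the 250 bases before the start of transcription are printed so that their base composition can be seen beside the values below. They are from RefSeq on GRCm38.p6, Nnat at chr2:157559828-157560077 (plus strand), Grb10 at chr11:12037421-12037670 (minus strand), Ndn at chr7:62348027-62348276 (plus), Kcnq1ot1 at chr7:143296548-143296797 (minus) and Peg3 at chr7:6730420-6730669 (minus). Capitals mark CG, the dinucleotide that carries DNA methylation.
Nnat: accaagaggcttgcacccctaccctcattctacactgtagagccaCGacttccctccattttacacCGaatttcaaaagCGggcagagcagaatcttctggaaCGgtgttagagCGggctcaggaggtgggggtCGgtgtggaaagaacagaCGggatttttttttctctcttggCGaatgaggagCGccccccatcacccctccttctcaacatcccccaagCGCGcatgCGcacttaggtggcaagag
Grb10: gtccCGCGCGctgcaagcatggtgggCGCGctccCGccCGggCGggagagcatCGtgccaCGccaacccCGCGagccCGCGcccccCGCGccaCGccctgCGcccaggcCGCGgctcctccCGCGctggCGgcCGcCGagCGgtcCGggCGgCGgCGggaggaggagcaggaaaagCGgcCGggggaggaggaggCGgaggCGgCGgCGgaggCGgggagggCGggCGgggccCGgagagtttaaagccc
Ndn: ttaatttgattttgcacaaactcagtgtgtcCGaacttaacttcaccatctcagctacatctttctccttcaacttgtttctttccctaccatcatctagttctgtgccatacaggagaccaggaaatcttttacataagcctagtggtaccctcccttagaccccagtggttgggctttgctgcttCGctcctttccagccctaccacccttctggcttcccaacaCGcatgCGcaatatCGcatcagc
Kcnq1ot1: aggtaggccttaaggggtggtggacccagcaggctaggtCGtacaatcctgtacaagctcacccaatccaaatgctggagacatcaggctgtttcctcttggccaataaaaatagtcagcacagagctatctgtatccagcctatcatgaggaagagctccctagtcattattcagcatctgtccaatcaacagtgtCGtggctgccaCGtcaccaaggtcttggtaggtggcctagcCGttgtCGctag
Peg3: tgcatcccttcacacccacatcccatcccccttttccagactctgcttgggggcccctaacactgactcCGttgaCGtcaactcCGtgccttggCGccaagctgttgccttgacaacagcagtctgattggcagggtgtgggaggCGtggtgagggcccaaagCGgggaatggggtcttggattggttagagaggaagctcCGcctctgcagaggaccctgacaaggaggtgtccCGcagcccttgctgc

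The printed Grb10 window, before the farther upstream of its 2 listed starts, held 40 CG, and 1.31% of 32851 such windows held at least as many. The window before its other start held 8. Nnat held 12 (33.5% held at least as many), Peg3 held 8 (43.0%), and Ndn and Kcnq1ot1 held 5 each (55.6%), around the median of 6. The letters TGCCGC, the core bound by the imprint-keeping factor Zfp57 when methylated, were searched on both strands and are in none of these 5 windows. They are in 7 of 47 windows of the 29 members with a window, among them 2 overlapping windows of Mest, against 8.68% of all windows. Windows on chromosome 18, where Impact lies, were left out of all these counts. The windows of Peg3 and Usp29, which are transcribed in opposite directions, share 163 bases. Methylation was not measured.

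The first group of genes to be described lies on chromosome 7 in the adjoining Igf2-H19 and Kcnq1 clusters. Igf2 encodes a fetal growth factor expressed from the paternal copy. It read 1064, 1148, 1051, 884 and 1317 in transformed postnatal cells, against 216, 84.0, 84.6, 116 and 177 in postnatal controls, where only 2 arrays were above background. The groups did not overlap, and Igf2 was called higher (1093 ± 158 against 135 ± 58.7, SD, n = 5 each, adjusted p = 1.12e-08). Embryonic cells read 414, 354, 503, 681 and 620 after transduction and 695, 534, 1032, 449 and 876 in controls, overlapping groups (-0.44 ± 0.28, SE, adjusted p = 0.235). The other Igf2 probe set was called in neither response. It averaged 34.5 in transformed and 33.2 in control postnatal cells, below background on all of those arrays.

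Cdkn1c encodes p57, an inhibitor of cyclin-dependent kinases that brakes cell division, and is expressed from the maternal copy. Its signals were 82.7, 97.7, 41.8, 60.6 and 51.4 in transformed postnatal cells, against 3832, 4269, 4480, 8969 and 10048 in postnatal controls. It was below background on every transformed array and well above it on every control array, at least 39.4-fold lower (adjusted p = 5.57e-15), and its fitted log2 change was the lowest of the 18193 genes. The embryonic fall was smaller, to 2543, 2502, 2970, 2759 and 2416 after transduction, against 6013, 7674, 8008, 7363 and 7051 in controls. The embryonic groups did not overlap (-1.44 ± 0.23, 2.72-fold, adjusted p = 2.25e-05).

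Kcnq1ot1 is the long noncoding RNA of the paternal copy that silences the Kcnq1 cluster in cis. It rose to 4953, 4554, 4559, 3503 and 4963 in transduced embryonic cells, against 487, 352, 481, 401 and 501 in controls. That is 9.83-fold (3.30 ± 0.15, adjusted p = 1.16e-13), the largest embryonic rise among members above background on all arrays. Postnatally it fell to 323, 247, 296, 265 and 222 in transformed cells, against 700, 793, 815, 646 and 765 in controls (-1.41 ± 0.15, adjusted p = 8.54e-08). Neither pair of groups overlapped. Of its 6 probe sets, 5 were called higher in the embryonic and 3 lower in the postnatal response, with embryonic changes from 0.09 to 4.63. Kcnq1, the potassium channel gene within which it lies, was near background and not called in either response (adjusted p = 0.512 embryonic and 0.204 postnatal).

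Phlda2 and Ascl2, maternally expressed genes of the cluster best known in placenta, were called higher in transduced embryonic cells. Phlda2, a growth-restraining protein with a pleckstrin homology domain, read 933, 1039, 843, 1161 and 818 after transduction, against 41.9, 26.0, 50.0, 50.2 and 58.1 in controls. All control arrays were below background, which gives at least 5.69-fold (adjusted p = 5.92e-08). Postnatal signals were dim, 21.6, 27.1, 102, 17.8 and 135 in transformed cells and 241, 297, 218, 128 and 83.3 in controls, of which 3 arrays were above background. It was called lower (adjusted p = 0.00273, at least 1.19-fold), although the groups overlapped. Ascl2, a transcription factor of placental and intestinal stem cells, read 611, 463, 494, 503 and 632 after transduction, against 77.3, 45.3, 62.2, 48.7 and 25.0 in embryonic controls, all below background. It was at least 3.21-fold higher (adjusted p = 8.96e-06). Of its 3 probe sets, 2 were called higher, and the other averaged 264 after transduction and 243 in controls (0.24 ± 0.56, adjusted p = 0.797), with 3 and 4 arrays above background. Postnatal cells read 52.3, 175, 81.0, 301 and 163 after transformation and 82.7, 317, 47.4, 70.9 and 244 in controls, above background on 2 arrays of each group and not called (adjusted p = 0.871).

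The other members of the Kcnq1 cluster were not called. Cd81, a tetraspanin of the cell surface, averaged 86026 ± 4631 in transformed and 51261 ± 4985 in control postnatal cells (0.75 ± 0.06, adjusted p = 1.35e-09), without overlap but under 2-fold. Its embryonic mean was 46012 after transduction and 49868 in controls (adjusted p = 0.144). Tssc4, a splicing-related protein, averaged 10281 ± 796 in transformed and 5513 ± 1358 in control postnatal cells (0.93 ± 0.12, adjusted p = 1.22e-06), and 3788 ± 365 in transduced and 5561 ± 278 in control embryonic cells (-0.56 ± 0.12, adjusted p = 0.000663). The sign of its change thus differed between ages, each change under 2-fold. Nap1l4, a histone chaperone, was lower in both responses by under 2-fold (-0.41 ± 0.06 embryonic and -0.48 ± 0.06 postnatal, adjusted p = 4.20e-06 and 3.44e-07). Slc22a18, a membrane transporter, had group means of 110 to 177, near background. Over the 8 genes of the cluster, 3 were called higher and 1 lower in the embryonic response, and none higher and 3 lower in the postnatal response. Of all genes, 8.61% were higher and 5.74% lower in the embryonic response, and 9.56% higher and 6.40% lower in the postnatal response.

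**Figure D3:**
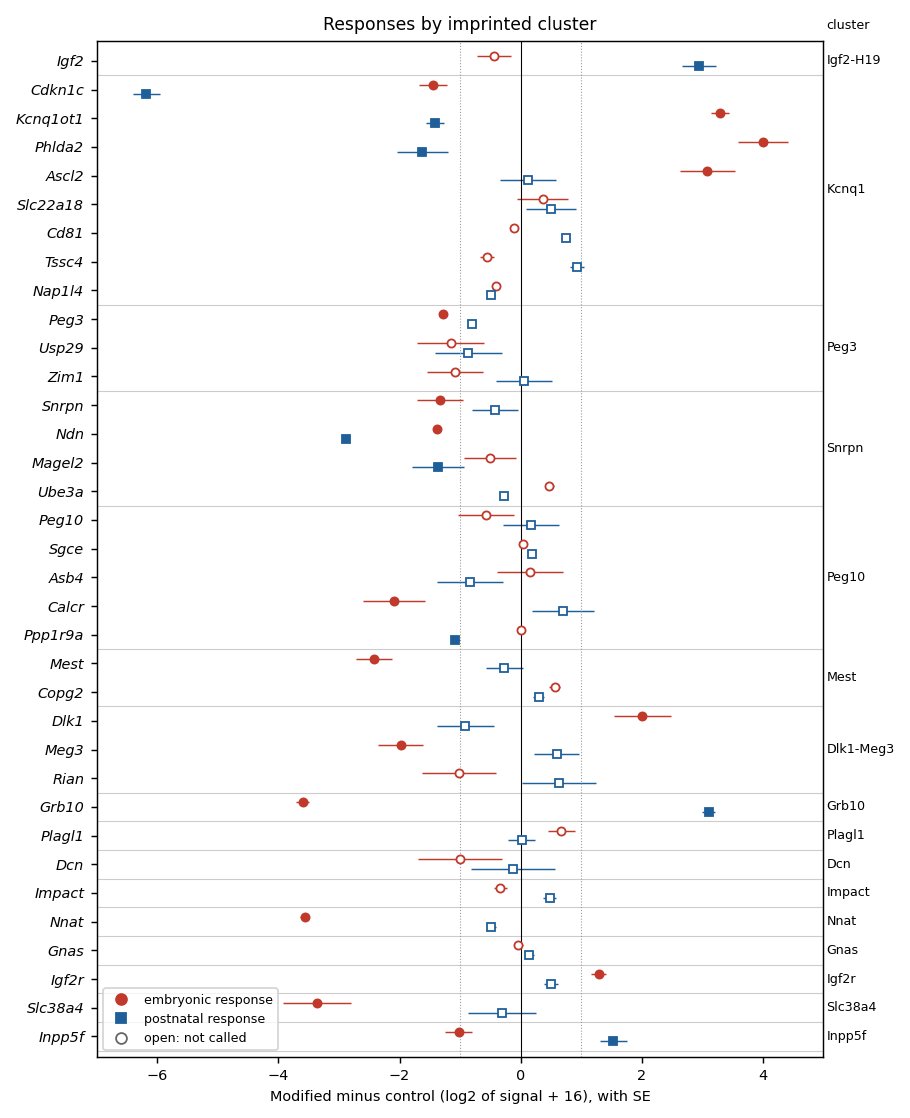
Log2 changes of the 35 imprinted genes by cluster, with standard errors. Red circles are the embryonic and blue squares the postnatal response, filled where called, and the dotted lines mark 2-fold. In the Kcnq1 cluster, embryonic changes run from -1.44 to a fitted 4.01, and in the Peg3 cluster all 3 lie below 0.

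The Snrpn cluster on chromosome 7 corresponds to the human region lost in Prader-Willi and Angelman syndromes. Ndn encodes necdin, a growth-restraining protein of neural cells expressed from the paternal copy. It fell to 4537, 4098, 4261, 4325 and 3823 in transformed postnatal cells, against 34068, 31903, 33414, 30153 and 26834 in controls. In embryonic cells it fell to 18333, 17039, 16608, 16887 and 17705 after transduction, against 45080, 48270, 44487, 43036 and 44576 in controls. The groups were apart at both ages. The fall was 7.39-fold in the postnatal (-2.89 ± 0.06, adjusted p = 1.33e-18) and 2.60-fold in the embryonic response (-1.38 ± 0.06, adjusted p = 7.38e-14). Of its 8 probe sets, 5 were called lower in both responses, by -1.38 to -1.68 and by -2.77 to -3.30, and the other 3 were near background.

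Magel2, a paternally expressed partner of ubiquitin ligases, lies next to Ndn and was dim. It read 107, 181, 128, 8.6 and 137 in transformed postnatal cells, with 1 array above background, against 186, 443, 324, 259 and 154 in controls, with 4. It was called lower (adjusted p = 0.0138), although the groups overlapped, and not without transformed array 4 (log2 change -0.84). Embryonic cells read 281, 470, 393, 380 and 402 after transduction and 616, 819, 495, 502 and 391 in controls, overlapping (-0.51, adjusted p = 0.407).

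Snrpn, which encodes a spliceosomal protein on the paternal transcript of the cluster, read 181, 90.1, 52.8, 39.8 and 48.1 in transduced embryonic cells, with 1 array above background, against 110, 416, 151, 275 and 181 in controls, with 4. It was called lower (adjusted p = 0.00739), although the groups overlapped. Postnatal cells read 371, 232, 294, 429 and 303 after transformation and 336, 272, 594, 613 and 464 in controls (-0.43 ± 0.38, adjusted p = 0.423). Ube3a, the ubiquitin ligase of Angelman syndrome, is expressed from the maternal copy in neurons and from both copies elsewhere. It averaged 36009 in transduced and 25878 in control embryonic cells (0.48 ± 0.07, adjusted p = 5.83e-06), and 24781 in transformed and 29966 in control postnatal cells (-0.27 ± 0.07, adjusted p = 0.00224), each under 2-fold. Mkrn3 and Peg12, further paternal genes of this cluster, were lower in the postnatal response, and Peg12 was picked after its values were seen. The first averaged 865 in transformed and 2803 in control cells (-1.67 ± 0.18, adjusted p = 7.83e-08), and Peg12 averaged 458 in transformed and 1274 in control cells (-1.38 ± 0.31, adjusted p = 0.000906). Their embryonic changes were not called (Mkrn3 -0.96 ± 0.18, adjusted p = 0.000145, and Peg12 -0.75 ± 0.31, adjusted p = 0.0626). Atp10a, another listed imprinted gene picked after its values were seen, was called higher in both responses. It changed by 1.45 ± 0.27 in the embryonic (adjusted p = 0.000171) and 1.51 ± 0.27 in the postnatal response (adjusted p = 9.17e-05).

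In the Peg3 cluster, Peg3 itself, a paternally expressed zinc finger protein, fell in embryonic cells to 3823, 3601, 3962, 4031 and 4349 after transduction, against 9745, 9308, 9772, 9583 and 9826 in controls. The groups were far apart (-1.29 ± 0.06, 2.44-fold, adjusted p = 1.63e-13). Its postnatal signals were 3660, 3439, 3303, 3396 and 3354 after transformation and 5916, 6194, 5769, 5474 and 6565 in controls, again apart but under 2-fold (-0.80 ± 0.06, adjusted p = 4.15e-10). Of its 5 probe sets, 3 were called lower in the embryonic and none in the postnatal response. Usp29, transcribed from the start region printed above, averaged 81.5 in transduced and 252 in control embryonic cells, where 3 arrays were above background, and was not called. Zim1, its maternally expressed neighbour, gave no signal above background.

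The Dlk1-Meg3 cluster on chromosome 12 pairs the paternally expressed Dlk1, a Notch-related membrane protein of precursor cells, with the maternally expressed noncoding RNAs Meg3 and Rian. The 2 partners moved in opposite directions in embryonic cells. Dlk1 rose to 2111, 1553, 2365, 1729 and 1472 after transduction, against 421, 486, 311, 540 and 467 in controls (2.01 ± 0.48, 4.03-fold, adjusted p = 0.00154). Meg3 read 168, 228, 48.0, 447 and 446 after transduction, with 4 arrays above background, against 702, 1091, 881, 735 and 1085 in controls (-1.98 ± 0.37, adjusted p = 0.000161). Neither pair of groups overlapped. Of the 11 probe sets of Meg3, 4 were called lower, with embryonic changes from -2.81 to 0.53.

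In postnatal cells Dlk1 read 377, 562, 469, 218 and 265 after transformation, against 1660, 2395, 635, 189 and 301 in controls (-0.91 ± 0.48, adjusted p = 0.138). Control arrays 4 and 5 held the 2 lowest control values, and without them Dlk1 was called lower (-1.89 ± 0.34, adjusted p = 7.21e-05). Meg3 read 2336, 3243, 3419, 3101 and 2941 after transformation and 1562, 3153, 1954, 1482 and 2055 in controls, overlapping (0.60 ± 0.37, adjusted p = 0.225). Of its 11 probe sets, 1 was called higher in the postnatal response (1.01 ± 0.38, adjusted p = 0.0349). Rian averaged 104 in transduced and 251 in control embryonic cells, and 458 in transformed and 358 in control postnatal cells, and was not called at either age. Of its 4 probe sets, 1 dim one was called lower in the embryonic response (adjusted p = 0.00483). It averaged 24.8 after transduction and 117 in controls, of which 1 array was above background.

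On chromosome 6 lie the Mest and Peg10 clusters. Mest, a paternally expressed hydrolase-like gene of growing mesodermal and neural tissue, fell to 18818, 17244, 18627, 15536 and 17623 in transduced embryonic cells, against 91606, 97107, 87620, 90996 and 101896 in controls. Every transduced array lay far below every control array (-2.42 ± 0.30, 5.34-fold, adjusted p = 8.30e-07). That standard error comes from 1 spread shared by the 4 groups. Without postnatal control arrays 4 and 5 it was 0.06 (adjusted p = 1.19e-18). Its postnatal signals were 10650, 10093, 11742, 11581 and 10945 after transformation, against 20740, 24101, 23067, 6316 and 5556 in controls. The control arrays lay on both sides of the transformed ones, and the change was -0.27 ± 0.30 (adjusted p = 0.536). Without control arrays 4 and 5 it was -1.04 ± 0.07 and called (adjusted p = 2.44e-11). Copg2, a coat protein gene overlapping Mest, was 1.47-fold higher in the embryonic response (0.56 ± 0.09, adjusted p = 3.08e-05) and 1.23-fold higher in the postnatal response (0.30 ± 0.09, adjusted p = 0.0107).

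In the Peg10 cluster Ppp1r9a, a neuronal actin-binding protein also called neurabin, was lower in the postnatal response, just past 2-fold. It read 3339, 3252, 3002, 3530 and 3494 after transformation and 6544, 6766, 7102, 8132 and 6722 in controls, without overlap (-1.08 ± 0.07, adjusted p = 4.66e-11). The embryonic arrays read 5580, 5548, 5464, 5276 and 6147 after transduction and 5095, 6236, 5368, 5681 and 5526 in controls (0.01 ± 0.07, adjusted p = 0.956). Of its 5 probe sets, 3 were called lower in the postnatal response, and 1 was called higher in the embryonic response (adjusted p = 0.02), averaging 539 after transduction and 224 in controls, of which 3 arrays were above background. Calcr, the calcitonin receptor, was dim. It read 15.3, 36.0, 22.4, 38.8 and 7.5 in transduced embryonic cells, all below background, and 81.3, 226, 125, 164 and 173 in controls, of which 2 arrays were above it. It was called lower (adjusted p = 0.00228), and no fold is given. Its postnatal mean was 70.9 after transformation and 52.8 in controls and was not called. Sgce, a paternally expressed sarcoglycan, was bright in every group, 7882 in transduced and 7636 in control embryonic cells and 7366 in transformed and 6503 in control postnatal cells (0.04 ± 0.06 and 0.18 ± 0.06, adjusted p = 0.658 and 0.0272). Peg10, a retrotransposon-derived gene, and Asb4, part of a ubiquitin ligase, were near background in some groups and were not called.

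Grb10, an adaptor protein that dampens insulin and growth factor signalling, was lower in the embryonic and higher in the postnatal response, each the largest fitted change among members above background on all arrays. It is expressed from the maternal copy in most tissues and from the paternal copy in neurons. In embryonic cells it fell to 2239, 2115, 2780, 2806 and 1678 after transduction, against 26841, 33333, 26511, 27216 and 26108 in controls. That is 12.1-fold lower (-3.60 ± 0.11, adjusted p = 1.09e-16). In postnatal cells it rose to 9979, 9714, 10260, 9756 and 9436 after transformation, against 1199, 1092, 1234, 1106 and 1010 in controls. That is 8.62-fold higher (3.11 ± 0.11, adjusted p = 2.28e-15). No arrays overlapped in either pair, and all 3 probe sets were called in both directions, with embryonic changes of -3.60, -3.18 and -1.92 and postnatal changes of 3.11, 2.85 and 1.88.

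Nnat, the paternally expressed proteolipid neuronatin of developing brain, had the smallest adjusted p of the members in the embryonic response. It fell to 4709, 5825, 5186, 5900 and 4671 in transduced cells, against 60537, 65697, 59125, 60613 and 64245 in controls, 11.8-fold lower (-3.56 ± 0.07, adjusted p = 3.44e-19). The postnatal arrays read 44726, 41126, 43840, 37625 and 37320 after transformation and 64198, 53530, 60006, 53599 and 54625 in controls, without overlap but under 2-fold (-0.48 ± 0.07, adjusted p = 1.37e-05). The 6 neuron markers given above were also lower in transduced cells. So were 3 of 7 progenitor, 2 of 6 astrocyte and 1 of 5 myelinating oligodendrocyte markers, and none of these lists had a marker called higher. Of choroid plexus and ependyma markers, 2 of 6 were called higher and 1 lower. The part of these markers' cell types in the changes of Nnat and the other members was not tested. In the postnatal response the neuron markers moved both ways, 2 called higher and 3 lower, or 2 lower without control arrays 4 and 5.

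Igf2r on chromosome 17, the maternally expressed receptor that clears Igf2 from the cell surface, rose in embryonic cells to 3447, 3253, 4472, 4037 and 3795 after transduction, against 1419, 1837, 1261, 1622 and 1608 in controls (1.29 ± 0.12, 2.44-fold, adjusted p = 1.25e-08). In postnatal cells it read 2494, 2425, 2501, 2315 and 2706 after transformation and 1893, 1335, 1643, 1999 and 1978 in controls, apart but under 2-fold (0.50 ± 0.12, adjusted p = 0.00159). Airn, the antisense noncoding RNA that silences the paternal Igf2r copy and was picked after its values were seen, was also higher in transduced cells, 1197 against 449 in controls (1.34 ± 0.24, adjusted p = 8.05e-05). Slc38a4 on chromosome 15, a paternally expressed amino acid transporter, read 4.7, 66.2, 142, 23.1 and 11.9 after transduction, against 519, 492, 236, 685 and 679 in embryonic controls. All transduced arrays were below background, at least 2.66-fold lower (adjusted p = 4.13e-05). In postnatal cells 1 of the 10 arrays was above background.

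Inpp5f, an inositol phosphatase of which 1 transcript is known as paternally expressed, fell to 6129, 5914, 6641, 5277 and 6334 in transduced embryonic cells, against 12723, 12773, 12646, 12248 and 11062 in controls, at the edge of 2-fold (-1.02 ± 0.22, adjusted p = 0.000736). It rose to 31342, 31841, 33067, 34208 and 32642 in transformed postnatal cells, against 14391, 18188, 17491, 6933 and 5762 in controls (1.53 ± 0.22, adjusted p = 6.20e-06). Groups were apart at both ages. Without control arrays 4 and 5, the lowest of the controls, the rise was 0.97 ± 0.08 (adjusted p = 3.02e-10), under 2-fold. All 3 of its probe sets were called higher in the postnatal response, by 1.42 to 2.06, and 2 were called lower in the embryonic response, the third reading 0.58. The probe sets were not assigned to the imprinted transcript.

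**Figure D4:**
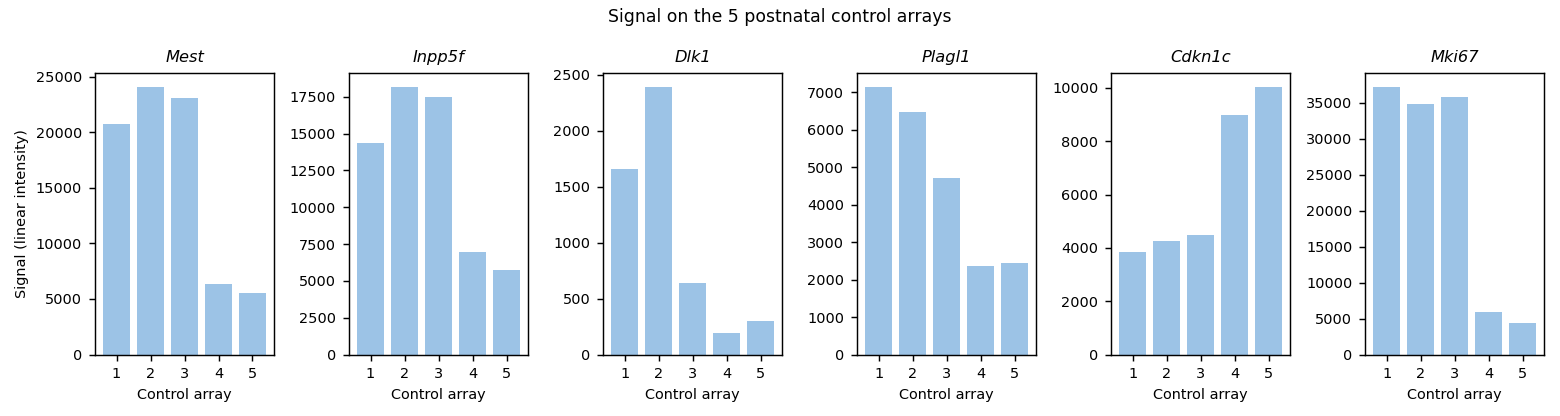
Signal (linear intensity) on each of the 5 postnatal control arrays for 5 imprinted genes and for the cell cycle marker Mki67. Each bar is 1 array. Mest, Inpp5f, Dlk1, Plagl1 and Mki67 are lower on arrays 4 and 5 than on arrays 1 to 3, and Cdkn1c is higher, 8969 and 10048 against 3832 to 4480.

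Of the 16 genes called in neither response, 4 lie outside the clusters described above, Plagl1 and Dcn on chromosome 10, Gnas on chromosome 2 and Impact on chromosome 18. Plagl1, a paternally expressed zinc finger protein that halts the cell cycle, averaged 9594 ± 802 in transduced and 6057 ± 980 in control embryonic cells (0.67 ± 0.23, adjusted p = 0.0214), without overlap. In postnatal cells it averaged 4239 ± 353 after transformation, against 7150, 6467, 4718, 2376 and 2444 on the control arrays (0.02 ± 0.23, adjusted p = 0.965). Without control arrays 4 and 5 that change was -0.51 ± 0.12, and the difference of the responses passed the threshold (-1.18 ± 0.16, adjusted p = 2.28e-06). Impact, a paternally expressed regulator of translation, averaged 2095 in transduced and 2636 in control embryonic cells (-0.34 ± 0.11, adjusted p = 0.0183), and 7308 in transformed and 5284 in control postnatal cells (0.48 ± 0.11, adjusted p = 0.00113). Gnas, the stimulatory G protein subunit, stayed among the brightest members with group means of 69718 to 76956 (-0.04 ± 0.07 and 0.14 ± 0.07, adjusted p = 0.733 and 0.116). Of its 5 probe sets, 1 dim one was called higher in the postnatal response (adjusted p = 6.42e-06). It averaged 177 in transformed cells, with 3 arrays above background, and 23.8 in controls, with none. Dcn, the matrix proteoglycan decorin, was near background in every group.

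**Figure D5:**
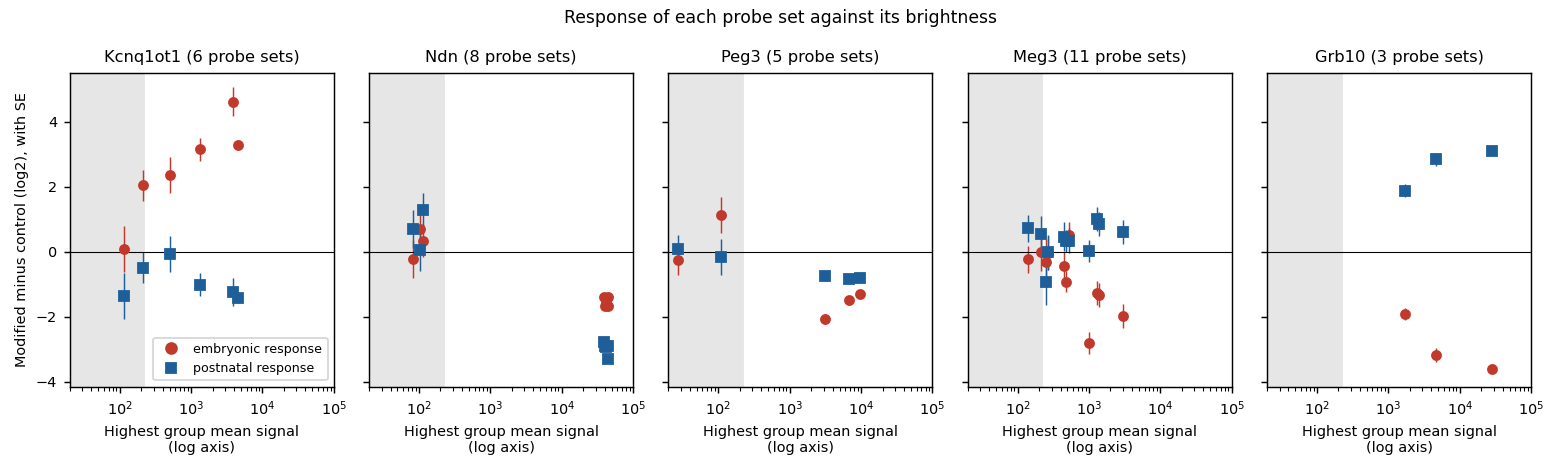
Log2 change of every single-symbol probe set of 5 genes (vertical axis, with standard error) against its highest group mean signal (log axis). Red circles are the embryonic and blue squares the postnatal response, and grey marks signals up to the highest array background, 221. The bright probe sets of Ndn and all 3 of Grb10 share a direction in each response. Probe sets within the grey band range from -1.36 to 2.05, both extremes from Kcnq1ot1.

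Sorted by the expressed copy, the 16 paternally expressed genes had 2 called higher and 7 lower in the embryonic response, with a median of -0.79, and the 19 maternally expressed genes had 3 higher and 4 lower, with a median of -0.12, against 8.61% of all genes higher and 5.74% lower. In the postnatal response the paternal genes had 2 higher and 3 lower (median -0.37), and the maternal genes 1 higher and 3 lower (median 0.14), against 9.56% of all genes higher and 6.40% lower. In the maternal class, Ascl2, Cd81, Tssc4, Nap1l4, Ppp1r9a and Dcn are listed as maternal in placenta, Ube3a in neurons and Gnas in some tissues. Grb10 of that class is listed as paternal in neurons. Called genes of either class moved in both directions at both ages, and the difference between the classes was not tested. Of the 35 genes, 22 had more than 1 probe set, 96 in all.

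The difference of responses, postnatal minus embryonic, was itself tested. It was called for 16 of the 35 genes, 9 higher and 7 lower, against 19.1% of all genes, 9.36% higher and 9.75% lower. The members' median was 0.30, against -0.07 over all genes. Grb10 had the largest difference of the members, 6.71 ± 0.15 (adjusted p = 2.54e-18), and Nnat (3.08 ± 0.11, adjusted p = 2.48e-15) and Igf2 (a fitted 3.39) followed among the higher. Kcnq1ot1 (-4.71 ± 0.21, adjusted p = 2.25e-13), Cdkn1c (a fitted -4.73) and Phlda2 (a fitted -5.63) lay at the other end. Ndn, called lower in both responses, fell further in the postnatal one (-1.51 ± 0.09, adjusted p = 1.10e-11). Tssc4 was called here although neither of its responses was (1.49 ± 0.17, adjusted p = 3.07e-07). For Peg3 the 2 falls differed by 0.49 ± 0.09 (adjusted p = 7.70e-05) and for Igf2r the 2 rises by -0.79 ± 0.17 (adjusted p = 0.000694), each under 2-fold. The labels name the treatment differently at the 2 ages, and a difference in treatment cannot be told apart from age.

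The controls of the 2 ages share arrays with both responses and are given beside them. Postnatal against embryonic controls, 10 of the 35 genes were called, 3 higher and 7 lower, against 10.6% of all genes, 4.86% higher and 5.72% lower, with 13 without overlap (22.2% of all genes). Grb10 was 24.4-fold lower in postnatal controls (1128 ± 89.5 against 28002 ± 3008 in embryonic controls, -4.61 ± 0.11, adjusted p = 9.10e-18). Mest was 7.08-fold lower (-2.82 ± 0.30, adjusted p = 2.16e-07, and -2.05 ± 0.07 without postnatal control arrays 4 and 5). Igf2 averaged 135 in postnatal and 717 in embryonic controls (adjusted p = 1.22e-06). Slc38a4 averaged 70.5, with 1 array above background, and 522 (adjusted p = 0.000384). Usp29, Asb4 and Calcr were also called lower, and Phlda2, Snrpn and Meg3 higher, all but Meg3 near background in at least 1 of the groups. Usp29, Snrpn and Asb4 were no longer called without postnatal control arrays 4 and 5, and Dlk1 was then called higher (1.60 ± 0.34, adjusted p = 0.000958). Nnat did not pass the test between the controls (-0.12 ± 0.07, adjusted p = 0.248), nor did Cdkn1c (-0.31 ± 0.23, adjusted p = 0.349). Without postnatal control arrays 4 and 5, Cdkn1c passed it under 2-fold (-0.78 ± 0.17, adjusted p = 0.00146). Of the markers, 4 of 6 for astrocytes and 3 of 5 for myelinating oligodendrocytes were higher in postnatal controls, 4 and 0 without those arrays, and their part was not tested. This comparison also holds any difference in culture or preparation.

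Factors that set, keep or read imprints, together with the Tet enzymes, were counted from a list of 22, all measured. In the embryonic response 3 were higher and none lower, with a median of 0.06, against 8.61% of all genes higher and 5.74% lower. They were Tet2 (1.08 ± 0.15, adjusted p = 3.29e-06), Tet1 (1.20 ± 0.20, adjusted p = 4.66e-05) and Zfp57 (1.01 ± 0.23, adjusted p = 0.000898). The Tet enzymes oxidise methylated cytosine, and Zfp57 binds methylated imprinting control regions. Zfp57 averaged 1415 in transduced and 721 in control cells. In the postnatal response none was higher and 6 were lower, with a median of -0.61, against 9.56% of all genes higher and 6.40% lower. Setdb1, a histone methyltransferase recruited to imprints, averaged 2736 in transformed and 6005 in control cells (-1.13 ± 0.06, adjusted p = 1.84e-12). Ezh2, the catalytic subunit of Polycomb complex PRC2, averaged 4765 in transformed and 19052 in control cells (-1.93 ± 0.16, adjusted p = 1.24e-09). Tet1 (-1.91 ± 0.20, adjusted p = 7.43e-08) and the DNA methyltransferase Dnmt3b (-1.25 ± 0.18, adjusted p = 5.88e-06) were lower too. Without control arrays 4 and 5, 8 were lower. Cell cycle marker Mki67 was also lower in this response (-1.88, and -3.01 without those arrays), and its part in these changes was not tested.

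A second list held 42 other imprinted genes, of which 33 were measured. In the embryonic response 6 were higher and 3 lower (median -0.04), against 8.61% and 5.74% of all genes. Trappc9, a vesicle trafficking protein, rose by 1.41 ± 0.07 (adjusted p = 9.29e-13). Nap1l5, a paternally expressed histone chaperone relative, averaged 7033 in transduced and 28689 in control cells (-2.05 ± 0.12, adjusted p = 4.86e-12). Commd1 (-1.02 ± 0.08, adjusted p = 5.94e-10) and Blcap (-1.02 ± 0.10, adjusted p = 1.60e-08), the gene that surrounds Nnat, also fell. In the postnatal response 5 were higher and 4 lower (median 0.19), against 9.56% and 6.40% of all genes. Pon2, a paraoxonase, averaged 7846 in transformed and 1295 in control cells (2.87 ± 0.29, adjusted p = 4.12e-08), and Qpct (1.26 ± 0.09, adjusted p = 7.28e-11) and Dhcr7, an enzyme of cholesterol synthesis (1.10 ± 0.10, adjusted p = 1.11e-08), rose with it. Mkrn3, given with its cluster above, fell.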

How the data were processed

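The deposited values were linear intensities, 1 for each of 45101 probe sets on 20 single-colour Affymetrix arrays. What the authors did to make these intensities (software, background correction, normalization and annotation release) is not given in the sources used here. A 2% trimmed mean came to 2500 on every array, which fits a common scaling, and no further normalization was applied to the deposited values. No detection flag was used, and background was taken as the 95th percentile of 27 bacterial control probe sets, with 61.3% to 73.2% of probe sets above it. Of the probe sets, 64 were controls, 34945 had 1 gene symbol and 932 several, which were not named. No pair of arrays held identical values.

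The deposited intensities were analysed as log2(signal + 16), which understates changes of dim genes. limma 3.58.1 in R 4.3.3 (files read by the data.table package, version 1.17.8) fitted 4 group means over all 20 arrays, with eBayes and an intensity trend. Tests were two-sided, adjusted by Benjamini-Hochberg over 18193 genes, and changes carry the standard error of that fit. The fit takes 1 spread per gene over the 4 groups. Embryonic standard errors and p-values therefore also carry the spread of postnatal control arrays 4 and 5. Without those arrays the embryonic standard error was 0.07 in place of 0.22 for Inpp5f and 0.30 in place of 0.48 for Dlk1. The model was tested on simulated data. Of 100 genes changed by 2 on the log2 scale it called 72, with 7 false calls, so a gene not called may still have changed. For a gene that no array of a group read above background, the fold is a lower bound, the brighter group's mean log2 signal against the mean of the higher of background and signal. With 1 to 3 arrays above background, mean signals are given in place of a fold. pandas 2.3.3, numpy 2.4.6, scipy 1.17.1 and matplotlib 3.10.9 made the counts and figures.

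Every member could be named, members called in a response were given array by array, and up to 4 called genes with the smallest adjusted p were named per list and response. The members and lists were chosen with earlier results of these data known. Same-numbered arrays of a pair of groups did not deviate together (correlations of -0.05 to 0.03), so replicate numbers were not taken as pairs. Alternatives were other normalizations, offsets, filters, probe set rules and fits, leaving out each array, and, chosen after seeing the data, leaving out postnatal control arrays 4 and 5. Chromosomes and start regions came from RefSeq tables of GRCm38.p6.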

Additional observations from a re-analysis of the deposited data

Results flagged for a closer look

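In 93 groups of 5 arrays in which a member was above background on every array, 1 array was set against the rest, as the gap to its nearest neighbour over the range of the group. The ratio passed 0.71, which chance does in about 5% of groups, in 2 of them. The lowest Kcnq1ot1 signal of the transduced embryonic cells (3503, ratio 0.753) and the highest Grb10 signal of the embryonic controls (33333, ratio 0.830) stood apart, and both lay far from the other group of their comparison.

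The embryonic and postnatal responses differed past the threshold, by the test of the difference itself, for 16 members. The difference, postnatal minus embryonic on the log2 scale, was 6.71 for Grb10, 3.39 for Igf2, 3.08 for Nnat, 3.06 for Slc38a4, 2.79 for Calcr, 2.58 for Meg3, 2.55 for Inpp5f, 2.15 for Mest and 1.49 for Tssc4. It was -5.63 for Phlda2, -4.73 for Cdkn1c, -4.71 for Kcnq1ot1, -2.96 for Ascl2, -2.92 for Dlk1, -1.51 for Ndn and -1.09 for Ppp1r9a. Values of Igf2, Slc38a4, Calcr, Phlda2, Cdkn1c and Ascl2 are fitted, since they were at background in 1 or more groups. For Mest the difference was 1.38, for Dlk1 -3.90 and for Inpp5f 1.99 without postnatal control arrays 4 and 5.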

How the results depend on the processing

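No called result changed direction under any alternative tried. Of the single-gene results, 555 of those under other planned settings kept their call, 6 gained and 9 lost it. With the mean of all probe sets, embryonic falls came to 7 in place of 11, since Peg3 (-0.79), Ndn (-0.86), Meg3 (-0.80) and Inpp5f (-0.61) went under 2-fold, as did Kcnq1ot1 in the postnatal response (-0.93) and Ndn in the difference (-0.73). This average takes in probe sets near background. With no fold threshold, embryonic rises were 8 in place of 5, postnatal rises 9 in place of 3 and falls 10 in place of 6, and in the controls 8 genes were higher in place of 3 and 11 lower in place of 7. With every probe set tested, 5 members were higher in the postnatal response and 5 between the controls, in place of 3 each. Snrpn (-0.97) and Magel2 (-0.98) were not called with an offset of 64, nor the Ppp1r9a difference (-0.98) with centring on the 75th percentile.

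Leaving out 1 array gave 5 embryonic rises each time and 10 to 12 falls, 3 to 4 postnatal rises and 5 to 7 falls, 9 to 10 positive and 7 negative differences, and between the controls 1 to 4 higher and 5 to 7 lower. The count of 1 came without embryonic control array 1. Inpp5f lost its embryonic call without transduced array 4 (-0.97). Dlk1 was called lower postnatally with array weights (-1.39) or without control array 4 (-1.36) or 5 (-1.20), and Calcr higher without control array 5 (1.19).

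With the replicate number as a block, 5 members were higher and 11 lower in the embryonic response, 3 higher and 6 lower in the postnatal response and 9 higher and 7 lower in the difference, as without the block. Of 10 arrays, 1 correlated best with its own number. The block could not be fitted between the controls. Quantile normalization and centring on the 75th percentile moved the median of all genes in the difference of responses to 0.04, against -0.07. Without postnatal control arrays 4 and 5, postnatal calls were 2 higher and 8 lower.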
